A study of Mus musculus with 4 samples.

Results

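The capillaries of the lung alveolus hold endothelial cells of more than one kind. The large, thin cells known as aerocytes are marked by Car4, a carbonic anhydrase tethered to the outer membrane that interconverts carbon dioxide and bicarbonate. Aerocytes and general capillary cells both form from the embryonic vascular plexus. Aerocytes depend on VEGF signalling from the alveolar epithelium and are known for expressing the endothelin receptor Ednrb and the peptide apelin (Apln), whose receptor Aplnr sits on general capillary cells. General capillary cells are known as the proliferating reserve of the alveolar vascular bed, and express the receptor tyrosine kinase Kit and the diaphragm protein Plvap.

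Aerocytes were selected here from single-cell RNA libraries of mouse lungs taken at stage E18.5, shortly before birth, and 236 of 20601 barcodes that passed the filters on genes and mitochondrial RNA, themselves a part of 27815 deposited barcodes, met the selection. A barcode counted as a capillary endothelial cell when it held UMIs (unique molecular identifiers, 1 for each captured transcript) of at least 3 of the 6 endothelial genes Cdh5, Cldn5, Emcn, Icam2, Pecam1 and Calcrl. It also had to hold no UMI of the epithelial gene Epcam, the blood cell gene Ptprc, the arterial genes Gja5 and Bmx or the lymphatic genes Mmrn1 and Prox1, fewer than 2 UMIs of Vwf, under 0.3% of UMIs in 3 fibrillar collagen genes, and fewer than 3 of 6 mitotic genes. Those conditions left 1315 capillary barcodes. The 236 with at least 2 UMIs of Car4 are the aerocytes, 99 had exactly 1 Car4 UMI, and 980 had none and are called Car4-zero capillary barcodes below. These genes chose the cells, so their levels are a description and carry no test.

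The study made 4 libraries. Wild type lungs gave 2, and lungs that carried the transgenes Tbx4-rtTA and Tet-O-Cre with Dnmt1-D/D, called Dnmt1 CKO (conditional knockout), gave the other 2. Dnmt1 copies DNA methylation onto newly made DNA strands. The Tbx4-rtTA transgene is used to drive Cre in lung mesenchyme, and the labels do not say whether it acted in endothelial cells. The lungs were digested with collagenase, dispase and DNase, and red blood cells were lysed. Nothing in the labels says whether replicates came from separate animals, so every p-value here measures only the spread between libraries, which may be technical.

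The aerocytes numbered 75 and 86 in wild type replicates 1 and 2, and 9 and 66 in Dnmt1 CKO replicates 1 and 2. Their summed UMIs were 507035, 760279, 59792 and 395578, so the 9 barcodes of Dnmt1 CKO replicate 1 give by far the shallowest profile. Median depth per aerocyte was 4878, 6326, 4238 and 4216 UMIs, against 3798, 4719, 4201 and 3560 in Car4-zero barcodes. Dnmt1 CKO replicate 1 also stood apart in other ways. It held Y-linked UMIs at 202 CPM (counts per 1000000 UMIs) together with Xist, the RNA of the inactive X chromosome, at 944 CPM, while wild type replicate 1 and Dnmt1 CKO replicate 2 held Xist with almost no Y-linked UMIs and wild type replicate 2 the reverse. In that library 72 of 121 capillary barcodes had a Y-linked UMI and 4 had an Xist UMI, whereas 261 of 424 collagen-rich mesenchymal barcodes had an Xist UMI and 210 had both. Some values are therefore also given without this library. Between 8 and 16 barcode sequences were shared by each pair of libraries, and none of the aerocytes carried one. A doublet caller marked 6 of the 236 aerocytes, 4 of them in wild type replicate 1 and 2 in Dnmt1 CKO replicate 2.

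The selection asked for UMIs of at least 3 of the 6 endothelial genes, so their detection describes the barcodes and is no evidence of what they are. Of the 236 aerocytes, 203 had UMIs of all 6 endothelial genes and 1 had only 3. Cldn5, a tight junction protein, was present in 235, Cdh5, Icam2 and Pecam1, which are adhesion molecules, in 233 each, and the mucin Emcn in 224. A list of 16 aerocyte genes that the selection did not read, Ednrb, Apln, Tbx2, Emp2 and Kdr among them, was counted after each barcode was thinned to 3000 UMIs. The 199 aerocytes deep enough held a median of 7 of these genes and 92.5% held at least 4, against a median of 3 and 44.8% in 698 Car4-zero barcodes. The median was 7 or 8 in each of the libraries. For 13 general capillary genes the order was the other way, with at least 4 detected in 59.8% of aerocytes and 83.5% of Car4-zero barcodes.

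The DNA upstream of 3 genes is shown: Car4, which defines the cells, and 2 of the 5 genes whose UMIs followed it most closely, the tetraspan membrane protein Emp2 and the cytokine Kitl, picked after their values were seen. Each run is the 250 bases before the start of the RefSeq gene on build GRCm38.p6, read 5′ to 3′ on the gene's own strand. Capitals mark CCGGAA or its other-strand form TTCCGG, the core that ETS transcription factors bind. ETS factors act throughout the endothelium. The Car4 stretch is chr11:84957504-84957753 on the plus strand, that of Kitl chr10:100015571-100015820 on the plus strand and that of Emp2 chr16:10313969-10314218 on the minus strand.
Car4: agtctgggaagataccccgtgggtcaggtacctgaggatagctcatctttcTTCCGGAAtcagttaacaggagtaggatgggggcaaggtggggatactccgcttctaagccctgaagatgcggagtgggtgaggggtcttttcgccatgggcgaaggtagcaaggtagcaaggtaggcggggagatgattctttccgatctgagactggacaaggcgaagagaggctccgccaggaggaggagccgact
Kitl: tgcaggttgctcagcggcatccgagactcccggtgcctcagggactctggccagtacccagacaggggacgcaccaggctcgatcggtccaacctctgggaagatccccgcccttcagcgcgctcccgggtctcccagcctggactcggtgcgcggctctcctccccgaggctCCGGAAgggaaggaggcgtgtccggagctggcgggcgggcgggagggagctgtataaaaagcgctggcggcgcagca
Emp2: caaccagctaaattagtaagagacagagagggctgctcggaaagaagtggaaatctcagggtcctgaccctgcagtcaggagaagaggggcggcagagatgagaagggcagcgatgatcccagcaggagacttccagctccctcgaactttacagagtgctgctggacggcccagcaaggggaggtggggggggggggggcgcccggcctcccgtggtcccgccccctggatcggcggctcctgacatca
The Car4 stretch holds 2 overlapping matches on opposite strands that form 1 palindrome, Kitl holds 1 and Emp2 none. None of the stretches holds GGTGTGA or its other-strand form TCACACC, the T-box half-site read by factors such as Tbx2. Among Car4 and the 36 genes described below as higher in aerocytes, 24 of 37 were matched to the RefSeq table with 36 windows, of which 4 (11.1%) held the ETS letters and 1 (2.78%) the T-box letters. Over all 32851 windows of 27025 genes the shares were 12.03% and 3.33%. A match is a description of letters and not of a bound site.

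Car4 itself varied among the aerocytes. Its UMIs ranged from 2 to 25 per barcode with a median of 4: 68 barcodes had 2, 65 had 3 to 4, 69 had 5 to 8, and 34 had 9 or more. The median was 4 and 5 in the wild type libraries and 3 and 3.5 in the Dnmt1 CKO libraries. In the summed aerocytes Car4 reached 801 and 626 CPM in wild type replicates 1 and 2, and 485 and 698 CPM in Dnmt1 CKO replicates 1 and 2. The gene lies at chr11:84957786-84966044 on the plus strand of GRCm38.

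Barcodes just outside the Car4 threshold also held more of other aerocyte genes than barcodes without Car4. Emp2 stood at 433 CPM in the 99 barcodes with 1 Car4 UMI and at 662 CPM in the 68 with 2, against 96.7 CPM where Car4 was 0. The exact Poisson 95% intervals, which cover counting error only, were 376 to 496, 583 to 749 and 88.0 to 106 CPM. Ednrb, the endothelin B receptor, stood at 281, 446 and 115 CPM over the same classes, and the T-box transcription factor Tbx2 at 196, 253 and 54.6 CPM. Barcodes with 1 Car4 UMI thus sat between the other classes for all 3 genes. At 9 or more Car4 UMIs, Ednrb reached 570 CPM and Kdr, the main VEGF receptor, went from 565 CPM at 0 Car4 UMIs to 938 at 2 and 1103 at 9 or more. Median depth rose along the same classes from 4069 UMIs at 0 to 6365 at 9 or more.

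**Figure D1:**
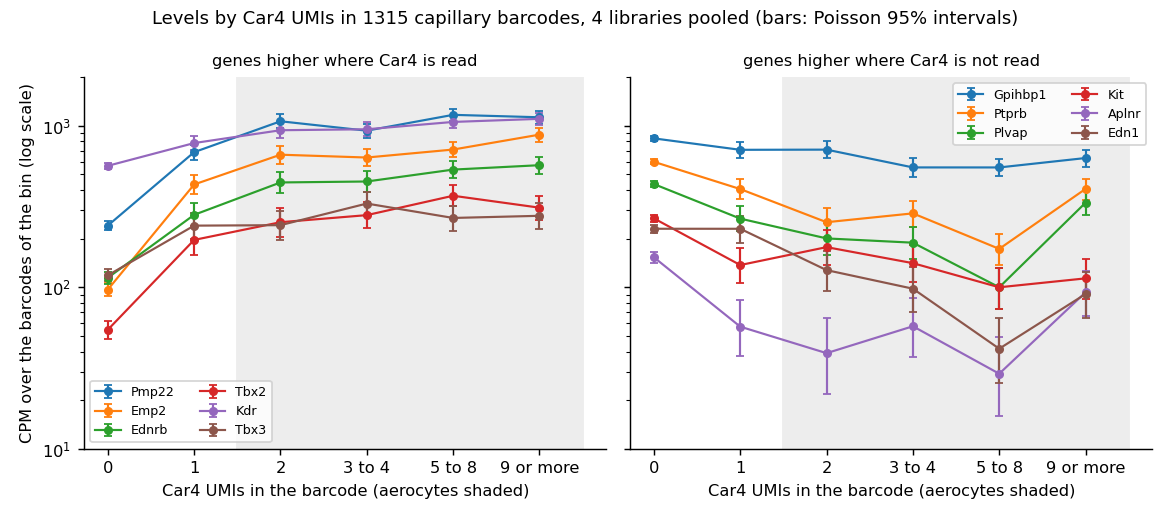
Level of named genes (CPM of summed barcodes, vertical axis) in capillary endothelial barcodes grouped by their Car4 UMI count (horizontal axis), all libraries together; bars on points are exact Poisson 95% intervals. Emp2 goes from 96.7 CPM at 0 Car4 UMIs to 433 at 1 and 662 at 2, while Plvap goes from 435 to 266 and 201.

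General capillary genes did not move together along these classes. Plvap, which builds the diaphragms of fenestrae and caveolae, stood at 435, 266 and 201 CPM at 0, 1 and 2 Car4 UMIs, reached 99.97 CPM at 5 to 8 and stood at 334 CPM in the 34 barcodes at 9 or more. Other genes of that list did not follow this course: Cd36, a fatty acid transporter, stood at 552, 593 and 529 CPM at 0, 1 and 2 Car4 UMIs, and Tmem100, a target of BMP signalling, at 66.1, 122 and 167 CPM. Edn1, the vasoconstrictor endothelin-1, a gene of the vasoactive list, stood at 230 CPM at both 0 and 1 Car4 UMIs, at 128 CPM at 2, at 41.7 CPM at 5 to 8 and at 90.8 CPM at 9 or more.

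The share of capillary barcodes that were aerocytes was close in 3 libraries and lower in the fourth. It was 18.4% (exact binomial 95% interval 14.8 to 22.5) and 18.8% (15.3 to 22.7) in wild type replicates 1 and 2, and 7.44% (3.46 to 13.7) and 20.1% (15.9 to 24.8) in Dnmt1 CKO replicates 1 and 2. The wild type mean was 18.6% ± 0.247 (SD, n = 2) and the Dnmt1 CKO mean 13.7% ± 8.93 (SD, n = 2). The groups overlapped, and an exact two-sided permutation test gave p = 1, where 0.333 is the smallest p that this design allows. The difference of -4.85 percentage points became 1.46 percentage points without Dnmt1 CKO replicate 1. Thinned to 3000 UMIs, the shares were 14.7% (42 of 286), 11.03% (43 of 390), 6.02% (5 of 83) and 15.6% (32 of 205).

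Counted among all barcodes kept, aerocytes made up 1.40% and 1.68% in the wild type libraries and 0.204% and 1.15% in the Dnmt1 CKO libraries. Wild type averaged 1.54% ± 0.198 (SD, n = 2) and Dnmt1 CKO 0.675% ± 0.666 (SD, n = 2). Both Dnmt1 CKO values lay below both wild type values, and the exact two-sided permutation p was 0.333, the smallest possible. The difference of -0.869 percentage points became -0.398 percentage points without Dnmt1 CKO replicate 1. Capillary barcodes as a whole made up 7.62% and 8.97% of kept barcodes in the wild type libraries and 2.75% and 5.71% in the Dnmt1 CKO libraries, so this share moved with the capillary share, and the part of dissociation and capture in it was not tested.

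**Figure D2:**
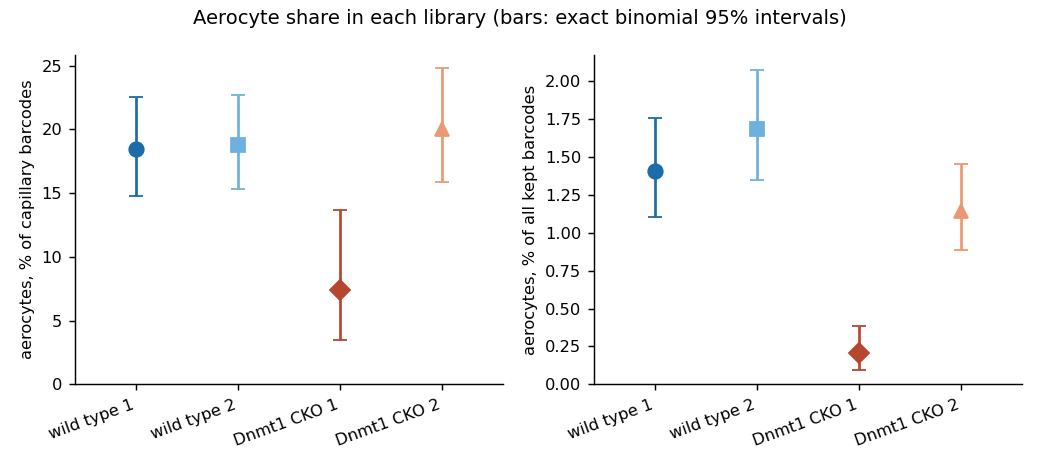
Aerocytes as a percentage of capillary endothelial barcodes and of all kept barcodes in each of the 4 libraries (points), with exact binomial 95% intervals (bars). Dnmt1 CKO replicate 1, with 9 aerocytes, lies at 7.44% of capillary barcodes, and the other libraries between 18.4% and 20.1%.

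Set beside Car4-zero capillary barcodes of the same library, aerocytes held more of a limited group of genes. Because Car4 split the classes, this is a description and no test was made. Of 3632 genes with a mean of at least 50 CPM in either class, 36 (0.991%) had at least 2-fold the CPM in aerocytes in all 4 libraries and 7 (0.193%) were at least 2-fold lower in all 4. Without Dnmt1 CKO replicate 1 the counts were 52 and 9. Ratios below are means over the libraries of log2 of CPM plus 10, which understates low genes, and the median over all 3632 genes was -0.01.

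Of 18 endothelial transcription factors at the level, 1 (Tbx2) was past 2-fold in all libraries, and their median log2 ratio was 0.06. Tbx2, a T-box repressor, reached 321 and 304 CPM in wild type aerocytes and 401 and 278 CPM in Dnmt1 CKO aerocytes, in each case replicates 1 and 2. In Car4-zero barcodes it stood at 53.4, 66.0, 27.0 and 51.2 CPM, so the classes did not overlap and the mean log2 ratio was 2.54 (SD 0.64, n = 4). Thinned to 3000 UMIs, Tbx2 was detected in 58.1%, 53.1%, 57.1% and 51.0% of aerocytes, in 10.8%, 13.6%, 4.17% and 12.6% of Car4-zero barcodes and in at most 2.27% of Epcam barcodes. Its close relative Tbx3 was also above Car4-zero barcodes in every library, at 278, 328, 284 and 190 CPM against 98.4, 151, 71.9 and 113 CPM. Foxf1, a forkhead factor of lung endothelium and mesenchyme, stood at 499, 426, 485 and 344 CPM against 265, 230, 189 and 179 CPM.

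Of 14 genes of the VEGF, apelin and angiopoietin list at the level, none was past the fold higher in aerocytes, 1 (Nrp2) was past it lower, and 9 had a positive ratio with a median of 0.12. Apln was higher in aerocytes in every library, at 116, 98.6, 83.6 and 189.6 CPM against 48.0, 25.2, 39.5 and 114 CPM. Its receptor Aplnr had the opposite order, at 51.3, 67.1, 117 and 25.3 CPM in aerocytes against 174, 131, 199.5 and 140 CPM. After thinning, Apln was detected in 30.6%, 24.7%, 14.3% and 38.8% of aerocytes and 13.7%, 6.45%, 4.17% and 21.0% of Car4-zero barcodes, and Aplnr in 6.45%, 9.88%, 0% (0 of 7) and 6.12% against 31.4%, 26.2%, 47.2% and 28.0%. Ligand and receptor thus had opposite orders in the sums of each library. In Dnmt1 CKO replicate 1 the Apln level of aerocytes came from 5 UMIs in 2 barcodes, 4 of them in a single barcode. Without the highest barcode of each class, Apln stood there at 22.4 CPM in aerocytes and 32.7 CPM in Car4-zero barcodes. Kdr, the VEGF receptor, stood at 901, 1107, 1003 and 991 CPM in aerocytes and at 537, 623, 496 and 537 CPM in Car4-zero barcodes, and its co-receptor Nrp1 was at 775, 1079, 619 and 758 CPM against 452, 665, 455 and 508 CPM. The other neuropilin, Nrp2, a co-receptor of lymphatic and venous endothelium, was lower in aerocytes, at 33.5, 26.3, 33.4 and 20.2 CPM against 68.6, 78.8, 106 and 98.5 CPM.

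The cytokine Kitl and its receptor Kit were likewise split. Kitl stood at 1020, 1434, 1171 and 1115 CPM in aerocytes against 374, 503, 329 and 437 CPM, a mean log2 ratio of 1.51 (SD 0.20, n = 4). Kit stood at 105, 189, 66.9 and 60.7 CPM against 233, 362, 199.5 and 179 CPM, a mean log2 ratio of -1.21. Kitl was thus higher in aerocytes and Kit higher in Car4-zero barcodes in each of the 4 libraries.

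The endothelin pair showed the same kind of split. Ednrb stood at 369, 655, 83.6 and 450 CPM in aerocytes and 89.2, 127, 110 and 128 CPM in Car4-zero barcodes. In 3 libraries aerocytes were over 3-fold higher, while Dnmt1 CKO replicate 1, with 5 Ednrb UMIs in its aerocytes, was the exception. Thinned detection of Ednrb was 56.5%, 72.8%, 28.6% (2 of 7) and 69.4% in aerocytes, 22.1%, 22.2%, 16.7% and 19.6% in Car4-zero barcodes, and at most 1.73% in Epcam barcodes. The ligand Edn1 was lower in aerocytes, at 74.9, 119.7, 0 and 53.1 CPM against 172, 249, 191 and 294 CPM. No Edn1 UMI was found among the 59792 of Dnmt1 CKO replicate 1, where 3 UMIs would be 50.2 CPM. That bound takes UMIs as independent, but they came from 9 barcodes. In the other libraries 17 of 75, 24 of 86 and 11 of 66 aerocytes held Edn1. The fold in Dnmt1 CKO replicate 1 is therefore not bounded. Of 7 vasoactive genes at the level Edn1 was the 1 past the fold, 4 had a positive ratio and the median was 0.48. Ace, the angiotensin-converting enzyme, stood at 686, 864, 318 and 819 CPM in aerocytes against 430.1, 556, 259 and 438 CPM.

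**Figure D3:**
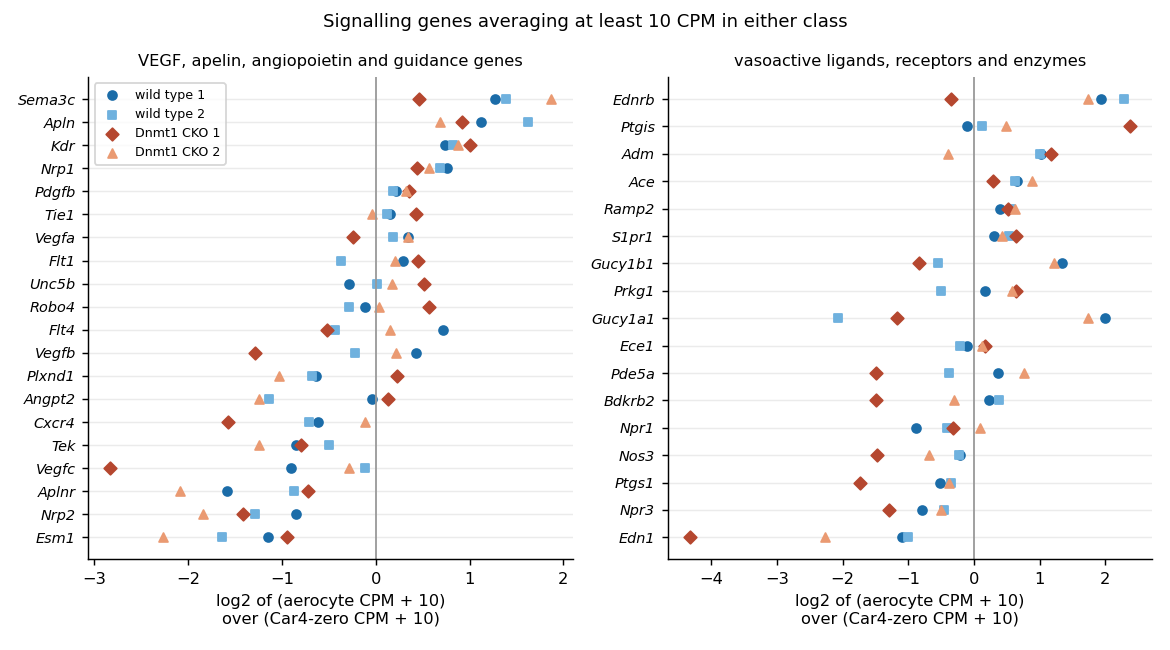
Log2 ratio (CPM plus 10) of aerocytes over Car4-zero capillary barcodes for genes of the VEGF, apelin and angiopoietin list and of the vasoactive list, 1 point for each library. Apln and Kdr lie right of 0 and Aplnr and Edn1 left of 0 in every library.

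Several other genes past 2-fold encode membrane proteins, which no list covered as a group. Pmp22 and Emp2 belong to the same family of tetraspan membrane proteins. Pmp22 stood at 1004, 1111, 702 and 1165 CPM in aerocytes against 243, 256, 110 and 284 CPM, a mean log2 ratio of 2.16 (SD 0.28, n = 4). Emp2 stood at 631, 712, 117 and 966 CPM against 89.2, 80.5, 50.3 and 160.5 CPM. Its mean log2 ratio was 2.32 (SD 0.85, n = 4), with the smallest gap in Dnmt1 CKO replicate 1. The aerocytes of that library held 7 Emp2 UMIs in 3 barcodes, with 4 UMIs in a single barcode. Without the highest barcode of each class, Emp2 stood there at 67.2 CPM against 43.5 CPM, under 2-fold. Emp2 is also abundant in Epcam barcodes, where thinning left it detected in 80.9% to 84.7% of barcodes. Both were above Car4-zero barcodes in every library. The integrin subunit Itgb5 stood at 148, 154, 184 and 169 CPM against 17.5, 23.5, 16.2 and 26.6 CPM, and the α subunit Itga3 had a mean log2 ratio of 1.00. Periaxin (Prx), a scaffold of myelinating glia that lung endothelium also makes, stood at 327, 414, 351 and 324 CPM against 101, 177, 66.5 and 108 CPM. These 3 genes had no overlap between the classes. Tmem47, a junctional transmembrane protein, stood at 414, 709, 368 and 650 CPM against 149, 199.6, 91.7 and 168 CPM. Sirpa, the receptor of CD47, was low but separate, at 51.3, 48.7, 117 and 78.4 CPM against 6.10, 6.15, 5.39 and 11.8 CPM.

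Further genes past 2-fold are given mainly by their mean ratio. Rtn1, a reticulon of the endoplasmic reticulum, had a mean log2 ratio of 2.33 and the growth-cone protein Gap43 one of 2.09. Tex14 had one of 2.08, the keratin Krt80 one of 1.78 and the sulfotransferase Chst1 one of 1.75. In Dnmt1 CKO replicate 1 the ratio was 3.41 for Rtn1 and 3.53 for Tex14, above the 1.77 to 2.26 and 1.29 to 1.89 of the other libraries. Krt80 stood at 33.4 CPM and Chst1 at 66.9 CPM in the aerocytes of that library, where 3 UMIs would be 50.2 CPM. Impdh1, which makes guanine nucleotides, had a ratio of 1.48, Tbxa2r, the thromboxane A2 receptor, one of 1.28, the growth factor Fgf1 one of 1.17 and the semaphorin Sema7a one of 1.27. These 4, with Itga3 and Prx, were chosen after their values were seen, as were the list members whose levels are given above but that the rule for named genes did not reach.

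The 7 genes that were lower in aerocytes were Cxcl12, Edn1, Tm4sf1, Prcp, Gpr182, Nrp2 and Ptprb. Cxcl12, the chemokine ligand of Cxcr4, stood at 27.6, 10.5, 50.2 and 17.7 CPM against 133, 136, 365 and 125 CPM, a mean log2 ratio of -2.42 (SD 0.40, n = 4). Ptprb, the endothelial receptor phosphatase that acts on VE-cadherin and Tie2, stood at 233, 362, 117 and 199.7 CPM against 490, 782, 537 and 447 CPM. Tm4sf1, a tetraspan protein of endothelial filopodia, stood at 160, 116, 151 and 248 CPM against 450, 320.3, 681 and 666 CPM. The remaining list of general capillary genes kept this direction, with 3 of 12 positive and a median of -0.54. Plvap stood at 217, 171, 385 and 222 CPM in aerocytes against 391, 364, 568 and 545 CPM. Of 9 arterial genes at the level 3 had a positive ratio and the median was -0.67.

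**Figure D4:**
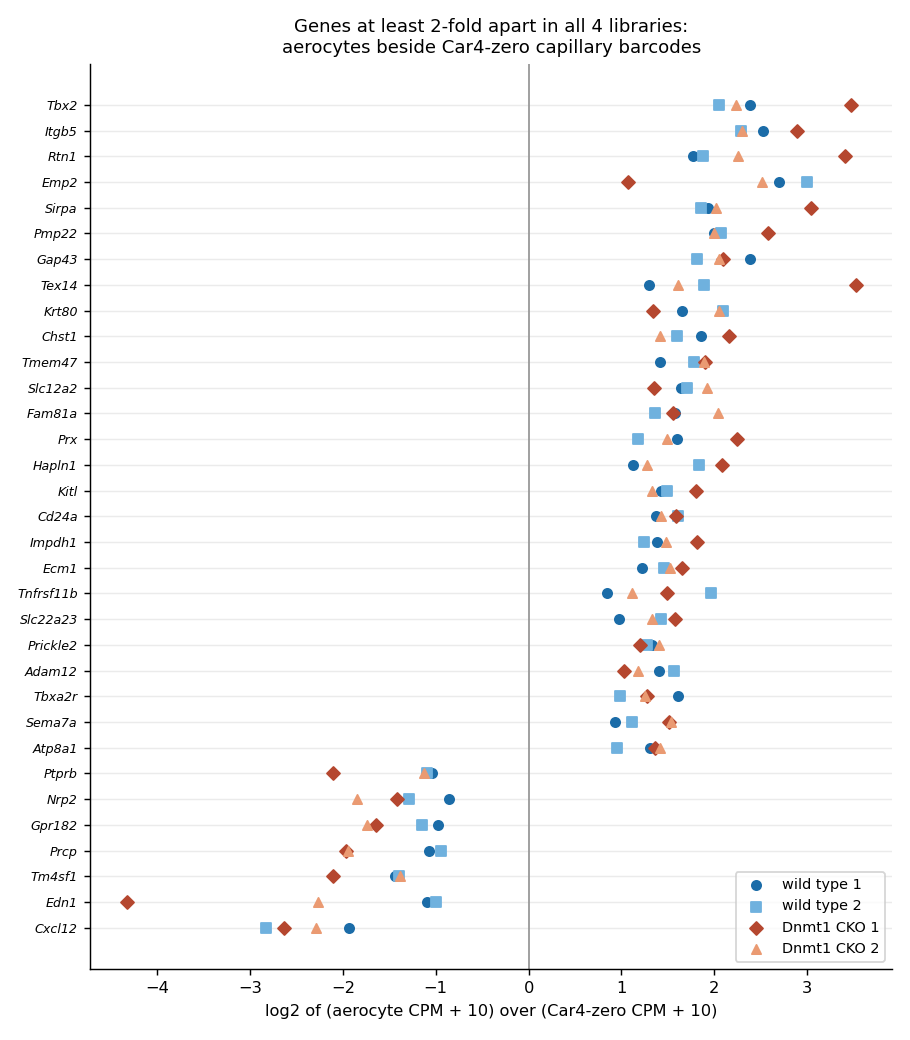
Log2 ratio (CPM plus 10) of aerocytes over Car4-zero capillary barcodes in each of the 4 libraries for the 7 genes lower and 26 of the 36 genes higher, by mean ratio. Tbx2 has the highest mean at 2.54 and Cxcl12 the lowest at -2.42, and Edn1 in Dnmt1 CKO replicate 1 lies far left because no UMI was found.

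Over single barcodes, Tbx2 and Emp2 were again among the first 5 genes, and the other 3 differed from the first 5 by ratio. Among 8062 genes detected in at least 5% of the 1315 capillary barcodes, those whose log-scaled depth-normalised counts followed Car4 most closely, by the mean over the 4 libraries of Pearson's r, were Pmp22 (0.538), Emp2 (0.510), Tbx2 (0.487), Tmem47 (0.475) and Kitl (0.455). Emp2 reached 0.613, 0.598 and 0.659 in 3 libraries and 0.172 in Dnmt1 CKO replicate 1. Ednrb stood 12th with 0.360 and gave -0.04 in that library. The barcodes share their library and their depth, so these values are a description.

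The targeted gene did not separate the genotypes in these cells. Dnmt1 (chr9:20907209-20959888, minus strand) was counted at 41.4 and 53.9 CPM in wild type aerocytes, from 21 and 41 UMIs, and at 83.6 and 25.3 CPM in Dnmt1 CKO aerocytes, from 5 and 10 UMIs. The groups overlapped, and the log2 fold change was -0.30 (SE 0.56; edgeR quasi-likelihood test, adjusted p = 0.999). It was -0.80 without Dnmt1 CKO replicate 1 and 0.72 without Dnmt1 CKO replicate 2, so a single library set its sign. In Car4-zero barcodes Dnmt1 stood at 36.6, 44.7, 41.3 and 40.4 CPM. In mesenchymal barcodes, where Tbx4-rtTA is used, the wild type libraries had 44.8 and 32.0 CPM and the Dnmt1 CKO libraries 8.52 and 16.3 CPM. Which exons of Dnmt1 were deleted is not stated in the labels, and the Dnmt1 CKO aerocytes held only 5 and 10 Dnmt1 UMIs. These levels therefore do not show whether aerocytes recombined the gene.

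Between genotypes, few genes of aerocytes passed the test. Of 6006 genes tested on the summed UMIs, 4 (0.0666%) were called at an edgeR adjusted p under 0.05, all higher in Dnmt1 CKO. An unadjusted p under 0.05 was found for 200, a smaller share than the 0.05 that evenly spread p-values would give. The fitted log2 fold changes of the genes that chose the barcodes were -0.20 for Car4, -0.26 for Cdh5, 0.19 for Cldn5, 0.12 for Emcn, 0.05 for Icam2 and -0.34 for Pecam1, given as a description because the selection fixed a minimum of them. Among the aerocyte genes 0 of 14 tested were called and 6 were positive, with a median of -0.09, and among the general capillary genes 0 of 12 were called and 3 were positive, with a median of -0.38, beside -0.01 over all genes. None of 16 VEGF, apelin and angiopoietin genes, 12 vasoactive genes, 9 Notch genes and 14 BMP and TGF-beta genes was called either. Leaving out wild type replicate 1 or 2 gave 37 or 20 calls, leaving out Dnmt1 CKO replicate 1 or 2 gave 31 or 13, and a sex term gave 0. In a fit with 1 library in a group, that library is assumed to vary like those of the other group.

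The called genes rested on few barcodes. Fabp4 (chr3:10204088-10208576, minus strand), a fatty acid binding protein of capillaries and macrophages, had 0 and 2.63 CPM in the wild type libraries and 100.3 and 199.7 CPM in the knockouts, which gave 4.84 on the log2 scale (SE 0.65; edgeR, adjusted p = 6.04e-07). Those levels came from 0, 2, 6 and 79 UMIs, of which a single barcode held 6 of 6 in Dnmt1 CKO replicate 1 and 78 of 79 in Dnmt1 CKO replicate 2. The value of 4.84 is shrunk by a prior count of 2, and DESeq2, fitted without shrinkage, gave 6.75. Without the highest barcode of each library Fabp4 stood at 0, 1.36, 0 and 2.83 CPM. In Car4-zero barcodes Fabp4 stood at 98.4, 82.2, 543 and 266 CPM, where its change was called too (log2 fold change 2.18, edgeR adjusted p = 0.00167).

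The other 3 called genes are made by alveolar type 2 cells. Sftpc, surfactant protein C, stood at 304, 269.6, 351 and 3719 CPM, and its log2 fold change was 2.87 (SE 0.53; edgeR, adjusted p = 0.0133). A single barcode of Dnmt1 CKO replicate 2 held 1101 of 1471 Sftpc UMIs, and without the highest barcode that library stood at 960.4 CPM. Cxcl15, a secreted lung chemokine, stood at 5.92, 7.89, 33.4 and 159 CPM (log2 fold change 3.46, SE 0.56, edgeR adjusted p = 0.000207), and the protease Ctsh at 23.7, 14.5, 33.4 and 131 CPM (2.25, SE 0.50, edgeR adjusted p = 0.0389). Single barcodes held 52 of 63 and 30 of 52 of their UMIs in Dnmt1 CKO replicate 2. Over the 4 libraries Cxcl15 had 3, 6, 2 and 63 UMIs and Ctsh 12, 11, 2 and 52. Each level in Dnmt1 CKO replicate 1 thus rested on 2 UMIs. Dnmt1 CKO replicate 2 also had the highest Sftpc level in Car4-zero barcodes, at 447, 553, 507 and 1505 CPM over the 4 libraries. The 11 genes of the alveolar type 2 list summed to 410, 376, 485 and 4477 CPM in aerocytes, 589.5, 727, 647 and 1802 CPM in Car4-zero barcodes and 59342 to 87555 CPM in Epcam barcodes. The part of free RNA in these levels was not tested. With the barcode highest in Sftpc and the one highest in Fabp4 left out of each library, a setting added after the data were seen, none of Sftpc, Cxcl15 and Ctsh was called (edgeR adjusted p 0.587 for Sftpc) and Fabp4 was too low to test. Those barcodes were chosen by the genes then fitted again, so this setting shows where the UMIs lay and is no test of the genotype.

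**Figure D5:**
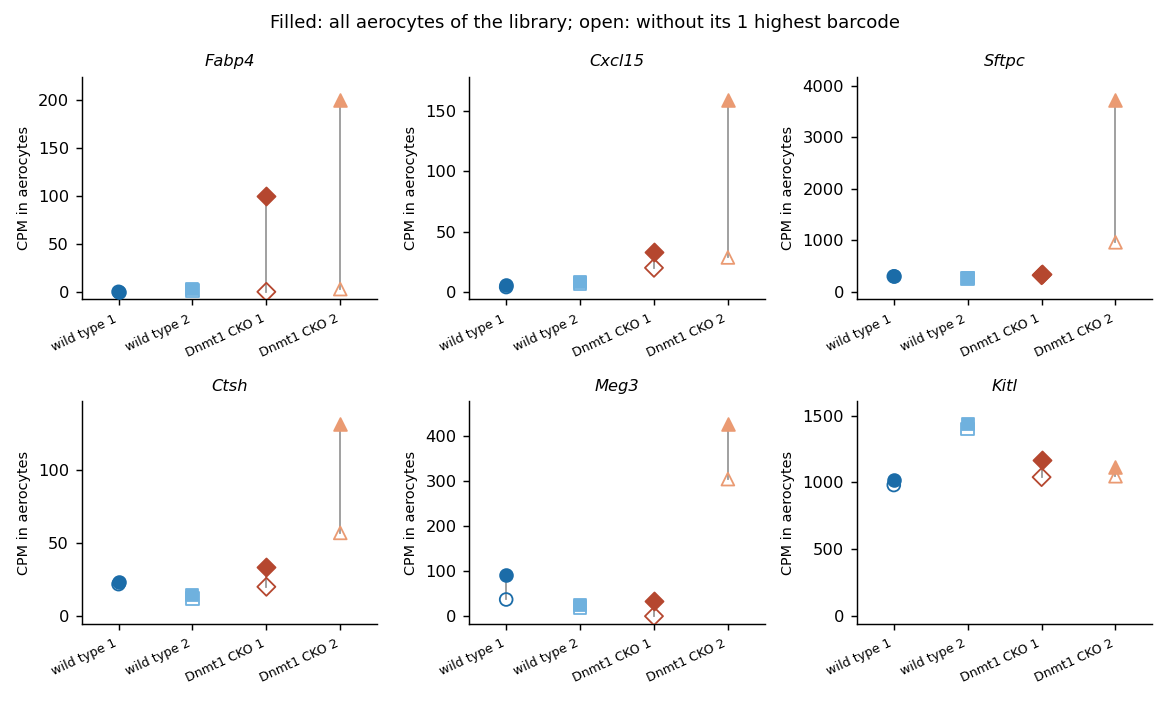
CPM of Fabp4, Cxcl15, Sftpc, Ctsh, Meg3 and Kitl in the summed aerocytes of each library (filled points) and after the barcode with most UMIs of that gene was left out (open points). In Dnmt1 CKO replicate 2 Sftpc goes from 3719 to 960.4 CPM and Fabp4 from 199.7 to 2.83 CPM, while Kitl stays between 981 and 1434 CPM in all libraries.

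Other cell types' markers are given because their RNA varied among the libraries. Mesenchymal markers summed to 2193, 230.2, 117 and 1143 CPM in aerocytes, pericyte markers to 420.1, 31.6, 16.7 and 233 CPM, immune markers to 25.6, 26.3, 16.7 and 96.1 CPM, and erythroid markers to 28927, 7070, 69759 and 6568 CPM. Erythroid RNA was thus highest in Dnmt1 CKO replicate 1 and mesenchymal RNA in wild type replicate 1. In Car4-zero barcodes mesenchymal markers summed to 2377, 994, 521 and 712 CPM and pericyte markers to 82.4, 204.6, 79.1 and 35.4 CPM. The part of these markers in the genotype results was not tested.

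No gene was called lower in Dnmt1 CKO aerocytes. The 3 with the smallest p were Fam117b, at 148, 191, 66.9 and 55.6 CPM (log2 fold change -1.45, edgeR adjusted p = 0.433), Stard4, a sterol carrier (-1.35, edgeR adjusted p = 0.686), and Hilpda, a hypoxia-responsive lipid droplet protein, at 124, 164, 33.4 and 58.1 CPM (-1.34, edgeR adjusted p = 0.744). Igfbp7, a secreted binding protein enriched in aerocytes, stood at 651, 481, 1104 and 1193 CPM with no overlap of the genotypes. Its log2 fold change of 1.05 (SE 0.31) did not pass (edgeR adjusted p = 0.727). In Car4-zero barcodes Igfbp7 stood at 267, 193, 678 and 608 CPM and was called (log2 fold change 1.52, SE 0.28, edgeR adjusted p = 0.0094), 1 of 27 (0.304%) of 8869 genes tested there. The difference between the 2 fold changes, -0.46, was not called (adjusted p = 0.941).

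Whether the genotype difference itself differed between aerocytes and Car4-zero barcodes was tested with library as a block. Of 8037 genes, 17 (0.212%) were called, 16 with a higher and 1 with a lower change in aerocytes. The 16 included Meg3, a maternally expressed long noncoding RNA, at 90.7, 24.99, 33.4 and 425 CPM in aerocytes and 103, 134, 61.1 and 145 CPM in Car4-zero barcodes, a difference of log2 fold changes of 2.47 (SE 0.31, edgeR adjusted p = 1.23e-10). Meg3 was at 2372 to 4195 CPM in mesenchymal barcodes. Mfap4, a matrix protein of mesenchyme, gave 1.73 (SE 0.27, edgeR adjusted p = 3.40e-06), Mgp, a calcification inhibitor, 1.5 (SE 0.25, edgeR adjusted p = 3.66e-06), Sftpc 1.59 and Fabp4 3.64. Mfap4 stood at 925, 63.1, 33.4 and 364 CPM in aerocytes, so its levels did not separate the genotypes. Also among the 16 were Acta2, Tagln, Ppp1r14a, Col6a1, Serping1, Stmn2, Dlk1, Gsn, Cxcl15, Sftpa1 and Napsa. The difference was positive for 11 of 11 mesenchymal markers tested (median 1.27, 1 called) and 5 of 5 pericyte markers (median 1.57, 0 called). It was positive for 7 of 8 alveolar type 2 markers (median 1.83, 4 called), beside a median of -0.04 over all genes. The part of other cells' RNA was not tested. With the same assumption for a group of 1 library, there was 1 call without Dnmt1 CKO replicate 2, 28 when Dnmt1 CKO replicate 1 was left out and 2 when wild type replicate 2 was.

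Edn1 was the gene whose genotype difference was lower in aerocytes. Its log2 ratio of aerocytes over Car4-zero barcodes was -1.10 and -1.0 in the wild type libraries and -4.33 and -2.27 in the Dnmt1 CKO libraries, where -4.33 rests on 0 UMIs and on the 10 CPM added. The difference of log2 fold changes was -1.48 (SE 0.36, edgeR adjusted p = 0.0176). Edn1 lies at chr13:42301476-42307990 on the plus strand. Within aerocytes alone it fell short of a call (log2 fold change -1.11, edgeR adjusted p = 0.999), and in Car4-zero barcodes its log2 fold change was 0.26. The difference kept its sign in all 16 alternatives and its call in 8. The call was lost without Dnmt1 CKO replicate 2 (-5.30), without wild type replicate 1 (-1.59) or 2 (-1.42), with Car4 at 3 UMIs or more (-1.46), with DESeq2 (-1.65), with equal cells per library (-1.54), without the low-count filter (-1.53) and without the library block (-1.39).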

How the data were processed

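Each of the 4 libraries was deposited by the authors as a matrix of raw UMI counts per gene and barcode. Per the submitters' processing notes, bcl2fastq 2.20, Cell Ranger 3.1.0, Seurat and GRCm38.p6 were used, without stated roles for each. Of 55471 gene identifiers 54573 were in GENCODE vM21. The members and gene lists were chosen with earlier results of these data known. Barcodes with at least 500 genes and at most 20% mitochondrial UMIs were kept. Aerocytes and Car4-zero capillary barcodes were summed per library, and edgeR 4.0.16 (quasi-likelihood test, TMM, R 4.3.3, Benjamini-Hochberg adjustment) was fitted to the summed counts with 2 libraries per group. The difference between classes used library as a block. Log2 fold changes from edgeR are shrunk by a prior count of 2. Each SE comes from the unshrunken test estimate, so a fold change and its SE are not of the same estimate. Scrublet (scanpy 1.11.5) marked doublets, which were kept. Shares were compared by exact permutation. To compare detection, barcodes were thinned to 3000 UMIs, leaving out shallower ones. On simulated data with 185 changed genes among 5961, 149 were called with 5 false calls. These counts describe that simulation only. How often a gene with most of its UMIs in a single barcode is called was not tested. Genes named were Dnmt1 and the markers, the genes with the largest called changes (the 3 smallest p-values where fewer than 3 were called), up to 12 past 2-fold each way against Car4-zero barcodes, up to 4 of each list by adjusted p, and the 5 most like Car4. Epcam barcodes had at least 2 Epcam UMIs, Ptprc barcodes at least 2 Ptprc UMIs, and mesenchymal barcodes at least 1% of UMIs in the 3 collagen genes, each without UMIs of Cdh5, Cldn5 or the other classes' defining gene. Alternatives covered filters, thresholds, normalization, DESeq2 1.42.0, doublets, sex, equal cell numbers and left-out libraries.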

Additional observations from a re-analysis of the deposited data

Results flagged for a closer look

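For 9 named genes the change between genotypes differed between aerocytes and Car4-zero capillary barcodes in the test of the difference itself (edgeR, library as a block). The differences of log2 fold changes were 3.64 for Fabp4, 3.01 for Cxcl15, 2.47 for Meg3, 1.93 for Sftpa1 (surfactant protein A), 1.73 for Mfap4, 1.69 for Gsn (gelsolin), 1.59 for Sftpc and 1.5 for Mgp, all higher in aerocytes. Edn1 was the 1 lower, at -1.48. Sftpa1 stood at 9.86, 18.4, 16.7 and 199.7 CPM in the aerocytes of wild type replicates 1 and 2 and Dnmt1 CKO replicates 1 and 2, so a single library was high. For Meg3, too, Dnmt1 CKO replicate 2 alone was high, with 168 UMIs in 13 barcodes, 51 of them in a single barcode. For Edn1 the highest barcode in Dnmt1 CKO replicate 2 held 4 of 21 UMIs. How UMIs were spread over barcodes was not computed for Gsn and Sftpa1.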

How the results depend on the processing

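The 9 aerocytes of Dnmt1 CKO replicate 1 limit every genotype comparison. By counting error alone, a gene with no UMI there could still be at 50.2 CPM. The 4 calls between genotypes in aerocytes became 1 with DESeq2, 2 without doublets, 2 with collagen under 0.1% of UMIs, 21 without the low-count filter, and 0 both with equal cells per library and with sex as a covariate. Leaving out a library each time gave 13 to 37 calls, with the lone library of a group assumed to vary like the others. Of settings added after the data were seen, leaving out the barcodes highest in Sftpc and Fabp4 gave 1 call (Meg3), and limiting markers of other cell types to 1% of UMIs gave 3 (Fabp4, Fabp5 and Thbs1), of which Fabp4 alone is among the 4. The replicate block gave 6 calls and held all 4. Same-numbered libraries correlated at -0.049 in their deviations. With 2 libraries per group this is a single value, and Dnmt1 CKO replicate 1 rests on 9 barcodes. It therefore cannot decide whether the numbers pair the libraries. For the difference between classes the replicate block lies within the library block and was not run. Its 17 calls became 0 with DESeq2, 6 without doublets, 1 with equal cells, 6 with other cell types' markers limited to 1%, 0 without the library block, and 1 to 28 with a library left out. With a library left out, the difference in the share of capillary barcodes ran from -11.2 percentage points to 1.46 without Dnmt1 CKO replicate 1. Single differences reversed as follows: Fabp4 to -1.11 without the highest barcodes, Sftpa1 to -0.78 with equal cells, Mfap4 to -0.75 without Dnmt1 CKO replicate 2 (up to 2.69 with another library left out), and Mgp to -0.74 with collagen under 0.1%, -0.48 with equal cells and -1.23 without Dnmt1 CKO replicate 2 (up to 1.94). Edn1 kept its direction in all 16 alternatives and its call in 8 of them. The cause of these changes was not tested.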

Other observations

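Dazl, a germ cell gene silenced by DNA methylation in body cells, had no UMI in the aerocytes of either wild type library or of Dnmt1 CKO replicate 1, and 29 UMIs in 8 of 66 aerocytes of Dnmt1 CKO replicate 2 (73.3 CPM, and 41.3 CPM without the highest barcode). At 3000 UMIs per barcode it was detected in 4 of 49 of those aerocytes (8.16%). In the same library that share was 2.01% of Epcam barcodes, 3.497% of Car4-zero barcodes and 38.3% of mesenchymal barcodes. The 30 genes of the germline list summed to 3.94, 2.63, 33.4 and 119 CPM in aerocytes of wild type replicates 1 and 2 and Dnmt1 CKO replicates 1 and 2. Those sums rest on 2, 2, 2 and 47 UMIs, so the 33.4 CPM of Dnmt1 CKO replicate 1 is 2 UMIs. In the same order the list summed to 11.4, 10.6, 50.3 and 43.3 CPM in Car4-zero barcodes and to 31.3, 45.9, 1215 and 1076 CPM in mesenchymal barcodes. No member of the list passed the low-count filter of the main fit in aerocytes, and 15 of 30 were at 0 there in every library. Without that filter Dazl was called higher in Dnmt1 CKO aerocytes (edgeR), where all its UMIs came from Dnmt1 CKO replicate 2. Car4-zero barcodes held Dazl at 0, 0, 17.97 and 12.8 CPM in the same order, from 0, 0, 10 and 13 UMIs. Dazl was among the 27 genes called between genotypes in those barcodes.

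Of 13 imprinted genes at the level, 1 had a positive ratio of aerocytes over Car4-zero barcodes and the median log2 ratio was -0.30, beside -0.01 over all genes. The sum over the 30 genes of the list did not follow that median. In wild type replicates 1 and 2 and Dnmt1 CKO replicates 1 and 2 it was 5838, 5344, 5185 and 6292 CPM in aerocytes. Car4-zero barcodes had 5189, 5235, 5680 and 5251 CPM, so aerocytes were higher in all but Dnmt1 CKO replicate 1. Peg3, a paternally expressed zinc finger gene, stood at 197, 399, 100.3 and 217 CPM in aerocytes and 329, 457, 293 and 418 CPM in Car4-zero barcodes, lower in aerocytes in 4 of 4 libraries.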
